A study of Mus musculus with 8 samples.

Results

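The genes described here are 37 genes best known from hepatocytes, the main cell of the liver, which secrete most proteins of blood plasma and carry out much of the body's metabolism. They were chosen by symbol, with no value consulted by the rule, and all 37 were found in the table of 31228 genes. By textbook tissue distribution they were parted into 19 that are largely restricted to the liver, 10 that absorptive gut epithelium also expresses and 8 that other tissues also express. The study asked how alike mouse extrahepatic bile duct and pancreatic duct are, as epithelia and as organoids, which are cultures of epithelial cells that grow as hollow structures in a gel.

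All tissue came from C57BL/6 mice, with no genotype or disease contrast and no untreated control. Ducts were dissected under a microscope, minced and digested with collagenase IV. The 1 bile duct epithelium and the 1 pancreatic duct epithelium went straight into Trizol. The 3 bile duct organoids and 3 pancreatic duct organoids were grown in Matrigel with expansion medium, which held EGF, R-Spondin-1, Noggin, FGF10, nicotinamide and, until hollow organoids formed, Wnt3A conditioned medium and Y27632, and were taken after 3 to 4 passages. The labels do not say how many mice each library came from or whether organoids of a group came from separate mice, so p-values measure the spread between these libraries only, which may be technical.

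Albumin, apolipoproteins, fibrinogen and the protease inhibitors are made by hepatocytes and exported to the blood, while the urea cycle and cytochrome P450 enzymes stay inside the cell. Their transcription in liver depends on a shared set of factors, among them HNF4A, C/EBP and FOXA proteins, several of which are also present in duct and gut epithelium. Cells of the bile ducts inside the liver and hepatocytes arise from a common progenitor in the embryonic liver, and the extrahepatic bile duct and the pancreas arise from neighbouring parts of the foregut.

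Reads of polyadenylated RNA had been turned by the authors into FPKM, reads divided by exon length and library depth. The values below are scaled FPKM, that is FPKM divided by a factor per library that sets the bulk of expressed genes level. Read numbers per gene were recovered from the FPKM, and the libraries held between 12876468 and 20828215 reads in all. The duct keratin gene Krt19 stood at 496 in bile duct epithelium, 97.6 in that of the pancreatic duct and between 642 and 2039 in the organoids. The epithelium libraries also held genes of other cells. The acinar gene Ctrb1, a pancreatic digestive enzyme, stood at 8203 in bile duct epithelium and 22879 in that of the pancreatic duct, and its highest organoid value was 0.172. In such bulk libraries, fewer cells of a type and less RNA per cell cannot be told apart.

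Promoter sequences of albumin and of the 3 fibrinogen genes are shown because pancreatic duct organoid 2 was the highest organoid for each fibrinogen gene and bile duct organoid 2 for albumin. Each line gives the 130 bases before the RefSeq transcription start on build GRCm38.p6, read 5′ to 3′ on the gene's strand, and capitals mark the letters TTGCNNAA or their reverse complement TTNNGCAA, where N is any base, a motif bound by the C/EBP factors and chosen after the sequences were seen.
Alb, chr5:90460740-90460869, plus strand: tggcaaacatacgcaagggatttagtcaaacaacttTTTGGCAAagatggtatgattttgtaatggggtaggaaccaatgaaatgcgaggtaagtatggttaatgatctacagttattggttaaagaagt
Fga, chr3:83026023-83026152, plus strand: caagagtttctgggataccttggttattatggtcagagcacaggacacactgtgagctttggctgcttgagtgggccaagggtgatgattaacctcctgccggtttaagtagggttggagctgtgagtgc
Fgb, chr3:83049864-83049993, minus strand: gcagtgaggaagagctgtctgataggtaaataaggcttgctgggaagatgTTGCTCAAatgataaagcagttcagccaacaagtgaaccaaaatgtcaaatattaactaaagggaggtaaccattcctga
Fgg, chr3:83007594-83007723, plus strand: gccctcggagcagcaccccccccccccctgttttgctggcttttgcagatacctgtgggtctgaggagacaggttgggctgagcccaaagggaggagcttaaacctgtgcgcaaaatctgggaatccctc
The motif began 94 bases before the start in Alb and 80 in Fgb, and was not among the letters of the Fga and Fgg windows. The RefSeq start of Fga lies inside the gene span of the deposited table, and so does part of its window. Of all RefSeq promoter windows of this length, 4.55% held the motif on either strand. RefSeq promoters were matched for 28 of the 37 genes, and over the 250 bases before the start 10 of these 28 held it (Ahsg, Alb, Apoa2, Apob, Fabp1, Fga, Fgb, Hpx, Rbp4 and Serpina1b), against 9.56% of all promoters. The letters AAAGTCCA, part of an HNF4A motif, searched on both strands over the same 250 bases, were in 3 of 28 (Apoa2, Cyp3a11 and Mup3) and in 1.01% of all. For both motifs a gene counted if any of its promoters matched, while the percentages are over 32851 single promoters, so these shares are in unlike units. A match describes letters only and is no evidence of binding.

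As a sum, liver plasma protein and metabolic genes were most abundant in the bile duct epithelium, lower in the pancreatic duct epithelium and lowest in the organoids, but the liver-restricted genes differed little between the epithelia. Summed over the 37 genes, scaled FPKM came to 772 in the bile duct epithelium and 235 in that of the pancreatic duct, and ran from 27.1 to 190 in the organoids. Bile duct organoid 2 held the 190, and the next highest organoid stood at 113. At least 1 scaled FPKM was reached by 29 genes in bile duct epithelium, by 15 in pancreatic duct epithelium, by 10 in any organoid and by 4 (Ambp, Ttr, Ass1 and Rbp4) in every organoid. A few genes carried the sums: Fabp1, Ttr and Apoa1 made up 67.1% of the bile duct epithelium sum, and Ttr alone between 9.51% and 69.6% of each organoid sum. Albumin, the leading transcript of liver, had rank 1454 among all genes of the bile duct epithelium and rank 9041 in the pancreatic duct epithelium. Several genes that define hepatocytes were at or near 0 in both epithelia. The asialoglycoprotein receptor gene Asgr1 stood at 0.392 and 0.142, the uptake transporter gene Slco1b2 at 0.0724 and 0, and the P450 gene Cyp1a2 at 0.0443 and 0. The second receptor gene, Asgr2, stood at 1.64 and 0.430, and Asgr1, Asgr2, Slco1b2 and Cyp1a2 had 0 reads in all 6 organoids.

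**Figure D1:**
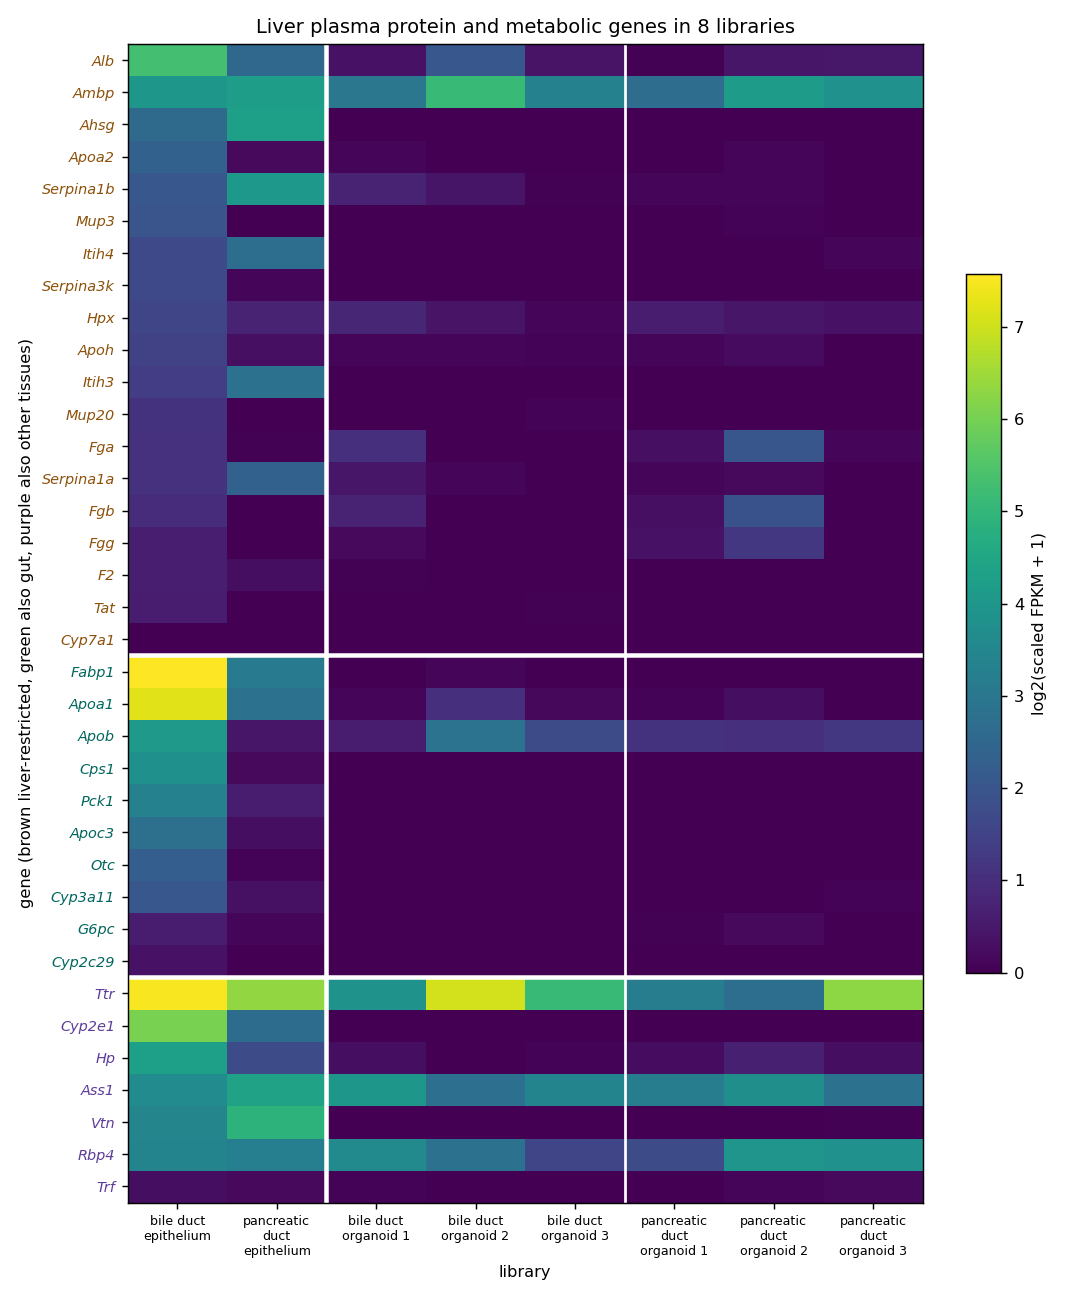
Levels of 36 of the 37 liver plasma protein and metabolic genes (rows, grouped by tissue distribution) in each of the 8 libraries (columns), as log2(scaled FPKM + 1). The bile duct epithelium column holds 28 of these genes at 1 scaled FPKM or more and the pancreatic duct epithelium column 15, while 9 genes had 0 reads in all 6 organoids.

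Among the carrier proteins largely restricted to liver, albumin was higher in bile duct epithelium than in pancreatic duct epithelium and was low in all organoids. Alb, which binds fatty acids and sets the osmotic pressure of plasma, stood at 38.3 scaled FPKM in the bile duct epithelium and 4.73 in that of the pancreatic duct. It stood at 0.285, 3.15 and 0.323 in bile duct organoids 1, 2 and 3 and at 0.0270, 0.379 and 0.396 in pancreatic duct organoids 1, 2 and 3. Every organoid lay below both epithelia, and bile duct organoid 2 stood apart from the other organoids. By reads the bile duct epithelium exceeded the pancreatic duct epithelium 8.10-fold (counting interval 6.80 to 9.70). These intervals are 95% exact (Clopper-Pearson) intervals for the ratio of scaled reads of 1 library to 1 library and cover counting error only. Over all 20139 genes with more than 3 reads in an epithelium, the interval lay above 1 for 25.6% and below 1 for 28%.

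Ambp, which encodes alpha-1-microglobulin and bikunin, was the only one of the 19 liver-restricted genes at 1 scaled FPKM or more in all 8 libraries. Its level was 14.9 in bile duct epithelium and 17.7 in that of the pancreatic duct, 6.99, 34.0 and 9.10 in the 3 bile duct organoids and 5.47, 16.8 and 13.3 in the 3 pancreatic duct organoids. The organoid ranges overlapped each other, and bile duct organoid 2 was again the highest. The bile duct organoids spanned both epithelia, while all 3 pancreatic duct organoids lay below the pancreatic duct epithelium. Hpx, the haem scavenger hemopexin, stood at 2.02 and 0.653 in the epithelia and between 0.101 and 0.742 in the organoids. Apoa2, a protein of high-density lipoprotein, gave 25 reads in bile duct epithelium, 1 in that of the pancreatic duct and 1 or 0 in each organoid. Apoh, beta-2-glycoprotein I, gave 32 and 5 reads in the epithelia and 0 to 5 in the organoids. For these 3 genes the bile duct epithelium was above every other library by scaled FPKM.

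Of the serpins and inter-alpha-trypsin inhibitor chains among the 37 genes, Serpina1a, Serpina1b, Itih3 and Itih4 were higher in the pancreatic duct epithelium and Serpina3k in that of the bile duct. Genes of these families outside the 37, named after their values were seen, went both ways: Serpind1 was 2.34-fold (counting interval 1.42 to 4.00) higher in pancreatic duct epithelium, while Serpinc1 was 7.90-fold (counting interval 2.34 to 41.5), Serpinf2 3.32-fold (counting interval 1.13 to 11.8) and Itih1 15.4-fold (counting interval 2.31 to 654) higher in bile duct epithelium. The intervals of Itih2 and Serpina6 held 1. Serpina1b, an alpha-1-antitrypsin gene, stood at 3.14 in bile duct epithelium and 15.4 in that of the pancreatic duct, and its neighbour copy Serpina1a at 1.12 and 4.07. By reads the pancreatic duct epithelium exceeded the bile duct epithelium 4.92-fold (counting interval 3.90 to 6.26) for Serpina1b and 3.63-fold (counting interval 2.29 to 6.00) for Serpina1a. These copies are nearly identical, so the split of reads between them is uncertain. In organoids Serpina1b ran from 0 to 0.691, with bile duct organoid 1 the highest and every organoid below both epithelia.

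Ahsg, which encodes fetuin-A, an inhibitor of mineral deposition, stood at 5.08 and 18.3 in bile and pancreatic duct epithelium. Itih3 and Itih4, members of the family of inter-alpha-trypsin inhibitor heavy chains in plasma, stood at 1.57 and 6.17, and at 2.20 and 5.60. The pancreatic duct epithelium was 3.61-fold (counting interval 2.96 to 4.42) above for Ahsg, 3.93-fold (counting interval 2.99 to 5.23) for Itih3 and 2.55-fold (counting interval 2.01 to 3.27) for Itih4. Ahsg and Itih3 had 0 reads in all 6 organoids, and Itih4 had 7 reads in pancreatic duct organoid 3 and 0 in the others. Reads of these 3 genes, and of Ttr and Rbp4, did not come out as whole numbers in every library and were rounded. Serpina3k, also of the serpin family, had 50 reads in bile duct epithelium, 2 in that of the pancreatic duct and 0 in every organoid, a ratio of 29.6-fold (counting interval 7.78 to 251) between the epithelia. It overlaps Serpina3m and belongs to a family of close copies, so its count is uncertain too.

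Values of acinar and islet genes are given here because they too differed between the epithelia. The insulin genes Ins1 and Ins2 stood at 8.08 and 19.4 in bile duct and 51.9 and 90.3 in pancreatic duct epithelium. Over the 10 islet genes the median log2 read ratio of bile to pancreatic duct epithelium was -0.17, with 3 genes higher in bile duct and 5 in pancreatic duct beyond counting error, and their summed level was 120 and 242. All 15 acinar genes were higher in pancreatic duct epithelium, with a median of -0.92 and summed levels of 26710.2 and 55528. No islet gene reached 1 scaled FPKM in any organoid, and the acinar sums there ran from 2.29 to 8.61. The part of these cells in the liver gene values was not tested.

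The 3 fibrinogen genes were higher in bile duct than in pancreatic duct epithelium, and pancreatic duct organoid 2 was the highest organoid for each of them. Fga, Fgb and Fgg encode the chains of fibrinogen, the clot protein, and lie close together on chromosome 3 in the deposited coordinates, Fgg at 83007724 to 83015049, Fga at 83026076 to 83033627 and Fgb at 83040141 to 83049863. In bile duct epithelium they gave 38, 40 and 13 reads, and in pancreatic duct epithelium 1, 0 and 0. By reads the bile duct epithelium was 45.0-fold (counting interval 7.60 to 1824) above for Fga. With a library of 0 reads set to a floor of 3 reads, it was 15.8-fold above for Fgb and 5.13-fold for Fgg. The lower limits of their counting intervals were 12.3 and 3.61.

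Among the organoids, Fga stood at 1.02, 0 and 0 scaled FPKM in bile duct organoids 1, 2 and 3 and at 0.252, 3.07 and 0.0880 in pancreatic duct organoids 1, 2 and 3. Fgb stood at 0.701, 0.0123 and 0.0132 and at 0.249, 2.78 and 0.0116, and Fgg at 0.133, 0 and 0 and at 0.302, 1.35 and 0. Pancreatic duct organoid 2 was the highest for each chain, bile duct organoid 1 and pancreatic duct organoid 1 followed at 1.02 or less, and the other 3 organoids held 0 to 6 reads of each chain. In reads, pancreatic duct organoid 2 held 167, 191 and 51 of the 3 chains, and bile duct organoids 2 and 3 held 0 or 1 each. The organ groups overlapped for all 3 genes, and none reached the 3 organoids at 1 FPKM that the test required.

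Lcn2, Saa3 and Mki67, picked after their values were seen, also varied between the organoids of each organ. The neutrophil and epithelial defence gene Lcn2 stood at 525, 13.1 and 11.8 scaled FPKM in bile duct organoids 1, 2 and 3 and at 62.0, 431 and 64.6 in pancreatic duct organoids 1, 2 and 3. Saa3, an acute-phase gene, stood at 6.13, 0.341 and 0.484 and at 5.64, 6.95 and 0.965 in the same order. Both were highest in bile duct organoid 1 and pancreatic duct organoid 2 of their organs, as fibrinogen was. The proliferation marker Mki67 stood at 23.4, 62.4 and 61.2 and at 30.3, 18.0 and 52.2, lowest in these same libraries. Complement C3, the most abundant of 27 further secreted hepatocyte proteins, stood at 343, 56.2 and 24.0 in bile duct organoids 1, 2 and 3 and 44.7, 215 and 49.3 in pancreatic duct organoids 1, 2 and 3. C3 too was highest in bile duct organoid 1 and pancreatic duct organoid 2. In pancreatic duct organoid 1, however, C3 and Lcn2 were below pancreatic duct organoid 3, which fibrinogen was not. What these libraries share was not tested.

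The remaining liver-restricted genes were weak. F2, prothrombin, gave 28 and 13 reads in the epithelia of bile and pancreatic duct, and no organoid held more than 3. Tat, which starts tyrosine breakdown, and the urinary pheromone carriers Mup3 and Mup20 gave 13, 36 and 12 reads in bile duct epithelium, 0 in that of the pancreatic duct and 0 or 1 in each organoid. Mup genes are nearly identical copies, so the count of any one is uncertain. Cyp7a1, the rate-limiting enzyme of bile acid synthesis, had 0 reads in all 8 libraries, where 3 reads would have been the limit a count of 0 allows.

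**Figure D2:**
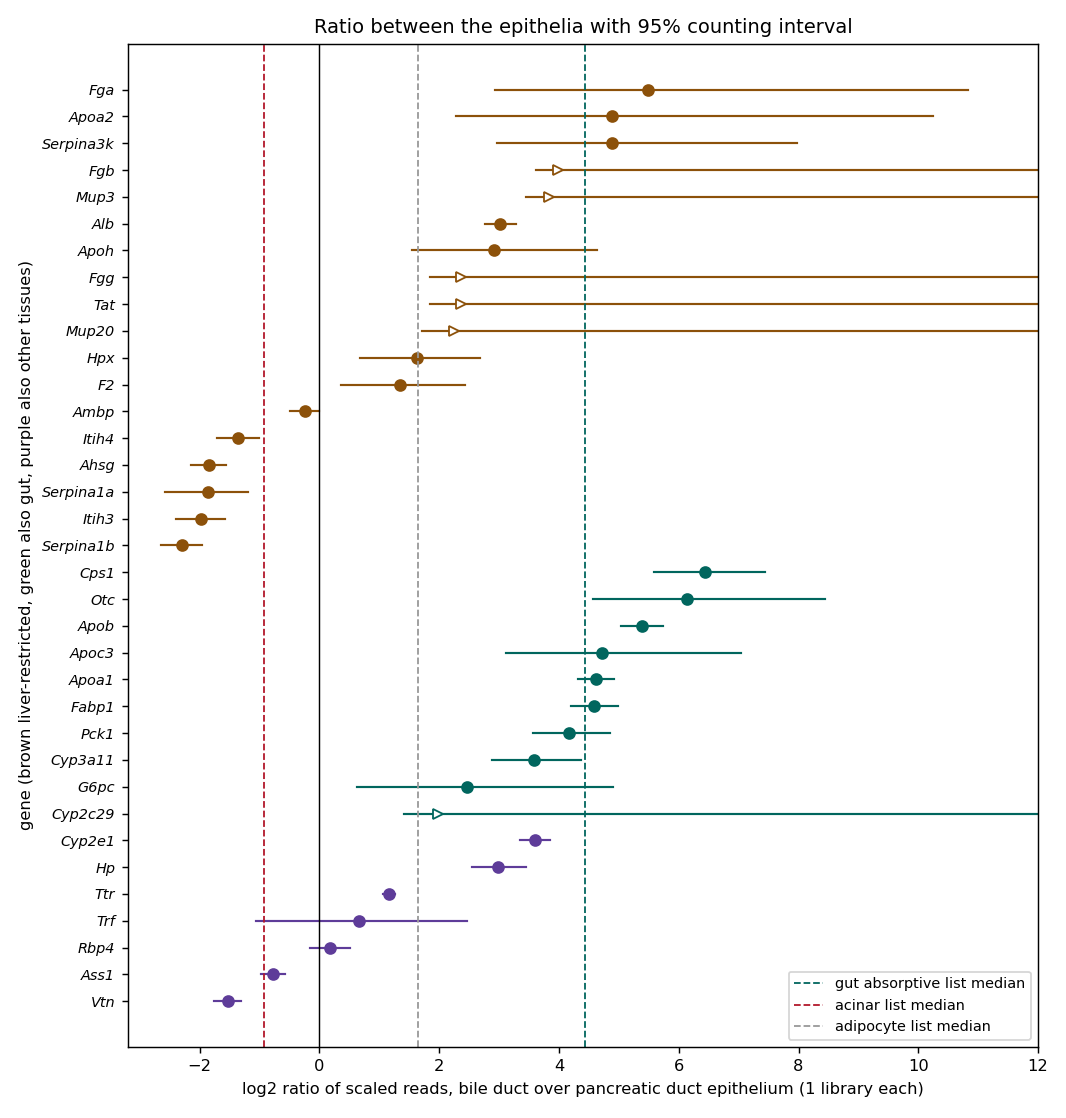
Log2 ratio of scaled reads in bile duct epithelium over pancreatic duct epithelium, 1 library each, for 35 of the 37 genes (Cyp7a1 had 0 reads in both), with 95% counting intervals as bars. Open triangles are lower bounds for genes with 0 reads in pancreatic duct epithelium, whose bars have no upper end and run to the axis limit, and dashed lines mark the medians of the gut absorptive, acinar and adipocyte lists. All 10 genes shared with gut lie right of 0, while 6 liver-restricted genes and 2 shared with other tissues have intervals wholly left of it.

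Genes that absorptive gut epithelium also expresses were all higher in the bile duct epithelium. Apob, the structural protein of chylomicrons and very-low-density lipoprotein, stood at 16.0 in bile duct epithelium and 0.384 in that of the pancreatic duct, a ratio of 41.6-fold (counting interval 32.9 to 53.5) by reads. Apoa1, the main protein of high-density lipoprotein, stood at 149 and 6.09, a ratio of 24.4-fold (counting interval 20.0 to 30.2). Fabp1, a fatty acid carrier of hepatocytes and enterocytes, was the most abundant of the 37 genes in bile duct epithelium at 189, against 7.90 in pancreatic duct epithelium. Apoc3, an inhibitor of triglyceride clearance, gave 67 and 3 reads. All 4 of these lipid transport genes lay beyond counting error, with no replicate of either library.

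Urea cycle and glucose genes of the same group had the same direction. Cps1, which makes carbamoyl phosphate for the urea cycle, stood at 12.9 and 0.149 in bile and pancreatic duct epithelium, a ratio of 86.5-fold (counting interval 48.1 to 174). Otc, the next enzyme of the cycle, stood at 3.76 and 0.0533 from 179 and 3 reads. The gluconeogenic enzyme gene Pck1 stood at 9.13 and 0.505. All 3 were higher in bile duct epithelium beyond counting error. G6pc, which releases free glucose, gave 14 and 3 reads. The drug-metabolizing enzyme gene Cyp3a11 gave 182 and 18, and Cyp2c29 gave 10 and 0, both from families of close copies.

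In organoids Apob was the gene of this group with most reads. Apoc3, Cyp2c29, Otc and Pck1 had 0 reads in all 6 organoids, Fabp1 and Cps1 had 0 or 1 in each, and Apoa1 had at most 28, in bile duct organoid 2. Apob stood at 0.507, 6.36 and 2.36 scaled FPKM in bile duct organoids 1, 2 and 3 and at 1.16, 1.03 and 1.32 in pancreatic duct organoids 1, 2 and 3. All bile duct organoids lay below their own epithelium and all pancreatic duct organoids above theirs, and the organoid groups overlapped.

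A list of 20 absorptive gut genes, some of which liver also expresses, was higher in the bile duct epithelium as well. Lgals2 stood at 456 in bile duct epithelium and 5.49 in that of the pancreatic duct, the retinoid carrier Rbp2 at 138 and 7.12, and the intestinal fatty acid carrier Fabp2 at 110.2 and 5.38. Of the 20 genes, 19 were higher in the bile duct epithelium and 1 in that of the pancreatic duct beyond counting error, and their summed level was 1081 and 89.3. In organoids the sum ran from 122 to 636, above the pancreatic duct epithelium in each. Lgals2 alone ran from 48.9 to 484 and Vil1 from 49.7 to 103, while Fabp2 stood at 0.719 or less. Of the 20 genes, 7 reached 1 scaled FPKM in any organoid. In bile duct 17 of 19 countable genes were at least 2-fold lower in organoids and 0 higher, beside 26.3% and 12.5% of all genes. In pancreatic duct 5 of 11 were lower and 3 higher by the same rule, beside 25.3% and 15.2%. The median log2 read ratio of bile to pancreatic duct epithelium was 4.44 for these 20 genes and 4.60 for the 10 liver genes shared with gut. It was 2.30 for 18 liver-restricted genes and 0.91 for the 8 shared with other tissues, with 0 reads in 1 epithelium set to 3. The part of gut-type cells in the liver gene values was not tested.

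Genes also known from other tissues split between the organs. Cyp2e1, an ethanol-oxidizing P450 also present in fat, stood at 65.3 in bile duct epithelium and 5.41 in that of the pancreatic duct, and Hp, haptoglobin, also made by fat, at 18.5 and 2.34. Vtn, the adhesion protein vitronectin, was higher in pancreatic duct epithelium, at 9.84 and 28.5, a ratio of 2.89-fold (counting interval 2.49 to 3.37). Ass1, a urea cycle enzyme that most tissues use to make arginine, stood at 11.5 and 19.6. The urea cycle genes Cps1, Otc and Ass1 did not share 1 direction: Cps1 and Otc were higher in bile duct and Ass1 in pancreatic duct epithelium.

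Fat markers differed in the direction of Cyp2e1 and Hp. Adipsin, Cfd, stood at 317 in bile duct epithelium and 56.2 in that of the pancreatic duct, and the lipid droplet gene Cidec at 80.2 and 5.07. Over 11 adipocyte genes, 9 were higher in bile duct epithelium and 1 in that of the pancreatic duct beyond counting error, with summed levels of 710 and 244 and organoid sums of 2.77 to 11.7. Of 13 macrophage and neutrophil genes, 11 were higher in bile duct epithelium and 1 in that of the pancreatic duct, with summed levels of 806 and 621. The part of fat or blood cells was not tested.

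The carriers Ttr and Rbp4 were found in every library. Ttr, transthyretin, carries thyroxine and the retinol-binding protein RBP4 and is also known from pancreatic islets. It stood at 180.0 in bile duct epithelium and 80.7 in that of the pancreatic duct, 13.6, 132 and 34.1 in bile duct organoids 1, 2 and 3 and 8.03, 5.73 and 77.4 in pancreatic duct organoids 1, 2 and 3. All 6 organoids lay below the bile duct epithelium, and bile duct organoid 2 lay above the pancreatic duct epithelium. Rbp4 stood at 9.76 and 8.65 in the epithelia, 11.1, 6.16 and 1.98 in the bile duct organoids and 2.29, 14.4 and 13.1 in the pancreatic duct organoids, so that both organoid ranges spanned the epithelia. Trf, transferrin, was weak in every library, with 8 and 6 reads in the epithelia and 0 to 10 in the organoids.

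The epithelia were first compared gene by gene. Each is 1 library with no replicate, so they were compared as values, with no test, and genes at least 2-fold apart in scaled FPKM + 1 were counted, among those with at least 1 FPKM in either epithelium. Of the 37 genes 29 could be counted, and 19 were higher in bile duct epithelium and 6 in that of the pancreatic duct, against 9.1% and 4.57% of all 15524 genes counted. A gene that reached 1 FPKM only where it was high is bound to differ, so these counts are a description. The 8 countable genes shared with gut were all higher in bile duct. Of the 14 countable liver-restricted genes, 7 were higher in bile duct and 5 in pancreatic duct. The median log2 difference was 3.17 for genes shared with gut, 0.96 for liver-restricted genes and 1.15 for those shared with other tissues, against -0.03 over all genes. With a minimum of 10 FPKM the liver-restricted median turned to -0.95, and with a pseudocount of 0.1 FPKM it was 1.99.

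By reads, with no minimum, 26 of the 36 genes with reads were higher in bile duct epithelium beyond counting error and 8 in pancreatic duct epithelium, beside 25.6% and 28% of all genes. The 8 were Serpina1a, Serpina1b, Ahsg, Ambp, Itih3, Itih4, Vtn and Ass1. Trf and Rbp4 lay within counting error.

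Organoids of both organs held less of most of these genes than the epithelium of the same duct. In bile duct, 24 of 29 countable genes were at least 2-fold lower by the organoid mean with all 3 organoids below the epithelium and 0 were higher, against 26.3% lower and 12.5% higher of all 15424 genes, a count that holds genes high only in the epithelium and is a description. In pancreatic duct, 13 of 18 were lower and 0 higher, against 25.3% and 15.2% of 15191. These counts are on the log2(scaled FPKM + 1) scale. By reads the 3 pancreatic duct organoids together exceeded their epithelium for some genes. The log2 ratio of epithelium over organoids was -1.62 for Apob, -0.28 for Rbp4 and -5.44 for Fga, with 1 epithelium read. It was -4.02 for Fgb and -2.26 for Fgg, with 0 epithelium reads set to 3. On the log2(scaled FPKM + 1) scale, the widest differences of organoid mean minus epithelium in bile duct were -7.53 ± 0.07 for Fabp1 and -6.78 ± 0.52 for Apoa1 (SD over the 3 organoids). Cyp2e1 followed at -6.05 (0 reads in each organoid) and Alb at -4.36 ± 0.96. In pancreatic duct the widest were -4.87 ± 0.02 for Vtn, -4.27 for Ahsg (0 reads in each organoid) and -3.95 ± 0.08 for Serpina1b. The order differed by reads. In bile duct the epithelium exceeded the organoids 4239-fold for Cps1, with 1 organoid read, and 330-fold for Apoa1. In pancreatic duct it did so 423-fold for Itih3, with 0 organoid reads set to 3, and 263-fold for Serpina1b. Ahsg and Cyp2e1 had 0 reads in the organoids, and the 3 organoids together were set to 3 reads. On that setting Ahsg was 220.0-fold higher in bile duct epithelium and 758-fold higher in pancreatic duct epithelium than in the organoids. Cyp2e1 was 2782-fold and 220.0-fold higher. Fibroblast and pericyte genes, summed over a list of 10, came to 3019 and 4666 scaled FPKM in bile and pancreatic duct epithelium and to 0.635 to 3.28 in the organoids.

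A limma model over all 8 libraries, with organ as a covariate, tested the change with culture using both epithelia. Of the 37 genes 17 reached 1 FPKM in at least 2 libraries and were tested, and 11 fell at an adjusted p under 0.05 while 0 rose, against 30.7% lower, 27.6% higher and 58.2% changed of 15034 genes. The 11 were Alb, Serpina1a, Serpina1b, Ahsg, Itih3, Itih4, Apoa1, Fabp1, Hp, Cyp2e1 and Vtn. Of these, 9 had no organoid at 1 scaled FPKM and Alb and Apoa1 had 1, so they were tested because the epithelia were high, and their count is no support for a fall of the 37 genes. Of the 6 tested genes with 2 or more organoids at 1 scaled FPKM (Fga, Ambp, Apob, Ttr, Ass1 and Rbp4), 0 were called. Alb changed by -3.27 (SE 0.61, limma adjusted p = 0.00304), Apoa1 by -4.74 (SE 0.81, limma adjusted p = 0.00213), Fabp1 by -5.34 (SE 0.84, limma adjusted p = 0.00136) and Vtn by -4.15 (SE 0.28, limma adjusted p = 2.12e-05). Ttr did not pass, at -2.21 (SE 1.10, limma adjusted p = 0.125), nor did Ass1, at -0.67 (SE 0.38, limma adjusted p = 0.172), Ambp, at -0.42 (SE 0.62, limma adjusted p = 0.583), Rbp4, at -0.43 (SE 0.72, limma adjusted p = 0.631), Apob, at -0.85 (SE 0.76, limma adjusted p = 0.370), or Fga, at 0.02 (SE 0.60, limma adjusted p = 0.981). The result rests on both epithelium libraries. Without the bile duct epithelium 8 genes could be tested and 1 (Apoa1) was called, and without the pancreatic duct epithelium 9 could be tested and 3 were called, among them Alb and Apoa1. Ttr was called when pancreatic duct organoid 3 was left out (limma adjusted p = 0.0328). At a minimum of 10 FPKM 4 could be tested and 0 were called. With FPKM as deposited, without scaling, 11 were called again, but Serpina1a was not among them.

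**Figure D3:**
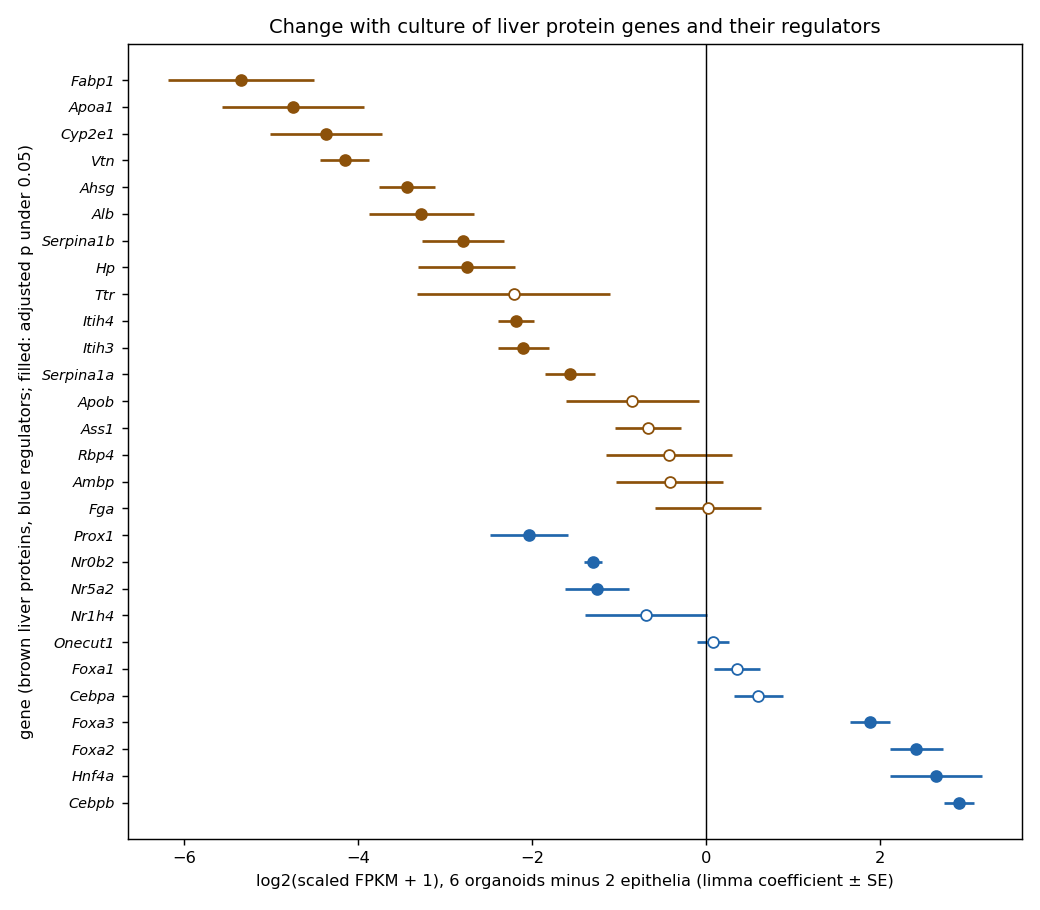
Change with culture on the log2(scaled FPKM + 1) scale, 6 organoids minus 2 epithelia, as the limma coefficient with its standard error, for the 17 tested liver plasma protein and metabolic genes (brown) and 11 of the 13 tested regulator genes (blue). Filled points passed an adjusted p under 0.05: 11 of the 17 liver genes lie left of 0 and filled, while 4 of the regulators shown are filled right of 0 and 3 left of it. Of all genes tested, 30.7% were called lower and 27.6% higher. Of the 11 liver genes, 9 had no organoid at 1 scaled FPKM and were tested because the epithelia were high.

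No tested gene of the set differed between bile duct and pancreatic duct organoids at the threshold. Of the 37, 5 reached 1 FPKM in at least 3 organoids and were tested (Ambp, Apob, Ttr, Ass1 and Rbp4), and limma called 0 of them at an adjusted p under 0.05 and 0 at an unadjusted p under 0.05. Over all 12094 genes 0% were called, and 2.54% had an unadjusted p under 0.05. The log2 difference of bile duct minus pancreatic duct organoids was 1.29 (SE 1.17) for Ttr, 0.64 (SE 0.55) for Apob, 0.27 (SE 0.65) for Ambp, 0.13 (SE 0.37) for Ass1 and -0.48 (SE 0.76) for Rbp4. The organoid groups overlapped for all 5, and the smallest adjusted p was 1.00. A p above the threshold does not show that the levels were equal.

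The highest organoid varied from gene to gene. Among 16 of the genes with at least 10 reads in some organoid, bile duct organoid 2 was the highest for 5 (Alb, Ambp, Apoa1, Apob and Ttr) and pancreatic duct organoid 2 for 5 (Fga, Fgb, Fgg, Rbp4 and Hp). Bile duct organoid 1 was the highest for 4 (Serpina1a, Serpina1b, Hpx and Ass1), bile duct organoid 3 for 1, pancreatic duct organoid 3 for 1 (Trf) and pancreatic duct organoid 1 for 0.

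**Figure D4:**
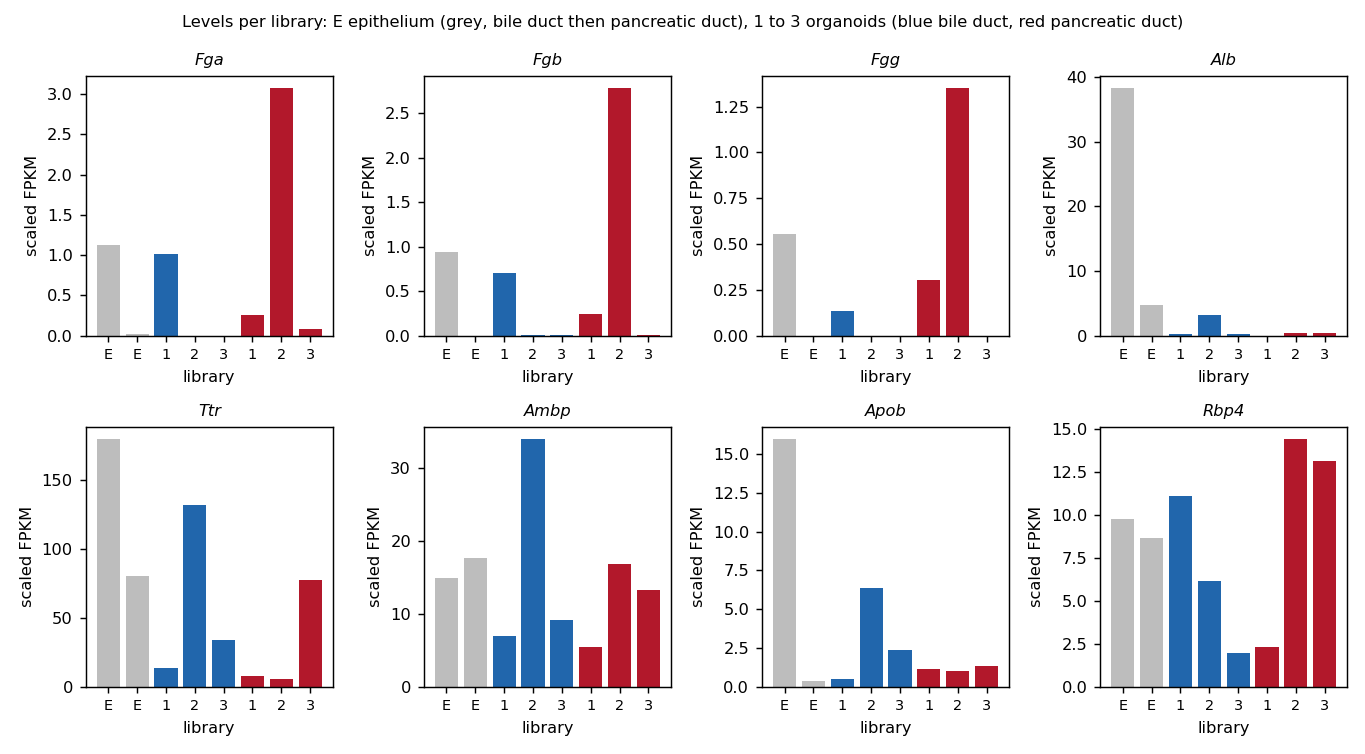
Scaled FPKM of 8 liver genes in each library, with epithelia as grey bars (bile duct, then pancreatic duct), bile duct organoids 1 to 3 in blue and pancreatic duct organoids 1 to 3 in red. Each bar is 1 library and each vertical axis starts at 0 with its own range. Pancreatic duct organoid 2 is the highest organoid for Fga, Fgb, Fgg and Rbp4, and bile duct organoid 2 for Alb, Ttr, Ambp and Apob.

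Of 16 transcription factor genes known to act on liver genes, 13 were tested in the same fit, and 6 rose with culture while 3 fell, beside 27.6% and 30.7% of all genes. Of 12 bile duct and duct epithelium genes, all tested, 7 rose and 2 fell. Among these, Krt8 rose by 2.63, Krt18 by 2.96 and Krt19 by 2.21, while Spp1, at 0.94, did not pass. The part of the cell mix in these changes was not tested. Hnf4a stood at 32.3 in bile duct epithelium and 3.80 in that of the pancreatic duct, 75.8, 94.6 and 77.1 in bile duct organoids 1, 2 and 3 and 94.2, 60.2 and 69.5 in pancreatic duct organoids 1, 2 and 3, a change of 2.63 (SE 0.53, limma adjusted p = 0.00447). Cebpb, an acute-phase regulator, rose by 2.90 (SE 0.17, limma adjusted p = 9.12e-06), Foxa2 by 2.41 (SE 0.31, limma adjusted p = 5.16e-04) and Foxa3 by 1.88 (SE 0.23, limma adjusted p = 4.31e-04). Foxa3, Foxa1 and the 3 that fell were named after their values were seen. Those that fell were Prox1 at -2.04, Nr5a2 at -1.26 and Nr0b2, with no organoid at 1 scaled FPKM, at -1.30. Without the pancreatic duct epithelium Prox1 lost its call (limma adjusted p = 0.112), and so did Nr5a2 (0.0970). Nr5a2 also lost it without the bile duct epithelium (0.186), and Foxa1 gained one without bile duct organoid 2 (0.0297).

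Further hepatocyte genes from lists beside the 37 were mostly weak or lower in culture. Of 28 metabolic genes 10 were tested and 7 fell with culture while 0 rose, beside 30.7% and 27.6% of all genes, but 4 of the 7 reached 1 scaled FPKM in no organoid and were tested because the epithelia were high. Glul, glutamine synthetase, stood at 126 and 77.9 in bile and pancreatic duct epithelium and between 1.25 and 9.12 in organoids, and Cdo1, which oxidises cysteine, at 63.7 and 20.7 against 5.27 to 14.8. Of 27 further secreted proteins 6 were tested, 1 fell and 0 rose, beside the same shares of all genes, and 19 stayed below 1 scaled FPKM in every library.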

How the data were processed

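Per the labels' protocols, messenger RNA of 8 mouse samples was captured on poly-T beads and prepared with the NEBNext Ultra RNA kit. The authors deposited 1 table of FPKM values for 31228 genes. No header names the unit, which was read from the values: FPKM times merged exon length in GENCODE M21 gave whole multiples of a step per library for 89.4% to 90.1% of values above 0 (within 0.05 of a read), and these steps gave the read numbers. For 32 of the 37 genes reads were whole in all libraries. The submitters' processing notes list Bowtie2 2.2.3, HISAT2 2.1.0, TopHat2 and HTSeq 0.6.0 with no role or order, and filters and use of strand are not given in the sources used here, so reads of overlapping genes cannot be told apart. Of 31141 identifiers found in GENCODE M21, which is on GRCm38, 28619 had its coordinates.

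FPKM were scaled between libraries by an unweighted trimmed mean of log ratios (30% of ratios and 5% of levels trimmed) over genes with at least 1 FPKM in some library, over 6 organoids for the organoid test and over all 8 libraries otherwise. Tests were run with limma 3.58.1 in R 4.3.3 on log2(scaled FPKM + 1), a scale that understates changes of weak genes, with an intensity trend and Benjamini-Hochberg adjustment over all genes tested. The organoid test kept genes reaching 1 FPKM in 3 or more organoids. The culture test kept genes reaching 1 FPKM in 2 or more libraries, with organ as a covariate. Epithelia have 1 library each and were compared as values. Read ratios have exact 95% intervals, and 0 reads were set to 3. Any of the 37 genes may be named. Of every other list the 4 genes with the highest mean were to be named, with genes at 0 in a whole group, and other names are said to be chosen after their values were seen. The 37 genes and all lists were chosen with earlier results of these data known. Alternatives covered scaling, pseudocount, minimum, trend, the organ covariate, a replicate block and leaving out each library. The fits were checked on simulated data. Values of 1 of the 37 genes and of 2 regulators are not reported here, while counts, sums and medians include them. RefSeq promoter sequences were read for 28 of the 37 genes. Python 3.11.15 with pandas 2.3.3, numpy 2.4.6, scipy 1.17.1 and matplotlib 3.10.9 was used for the rest.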

Additional observations from a re-analysis of the deposited data

Results flagged for a closer look

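For Fga, Fgb and Apob, every bile duct organoid lay below the bile duct epithelium while every pancreatic duct organoid lay above the pancreatic duct epithelium. Apob, the lipoprotein scaffold, differed by -2.34 log2 units (SD 1.14) in the bile duct and by 0.65 (SD 0.10) in the pancreatic duct, as the mean of 3 organoids minus the epithelium on the log2(scaled FPKM + 1) scale. Fga, a fibrinogen chain, differed by -0.75 (SD 0.58) and 0.79 (SD 1.05), and Fgb, another chain, by -0.69 (SD 0.43) and 0.75 (SD 1.02). Pancreatic duct organoid 2 carried most of the pancreatic duct values of both chains: without it, in a comparison chosen after the data were seen, Fga differed by 0.19 and Fgb by 0.17. These opposite directions were not tested for any of the 3 genes, and each organ has 1 epithelium library. In pancreatic duct epithelium Fga had 1 read and Fgb had 0, so for Fgb no organoid could lie below it. Pancreatic duct organoid 3 held 1 read of Fgb.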

How the results depend on the processing

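With a minimum of 10 FPKM, 11 genes were at least 2-fold apart between the epithelia (8 higher in bile duct, 3 in pancreatic duct), 8 were lower in bile duct organoids, 5 were lower in pancreatic duct organoids and 0 were called with culture, because fewer genes remained. The median log2 difference between the epithelia then was -0.95 for liver-restricted genes and 4.01 for genes shared with gut. With a pseudocount of 0.1 FPKM these medians were 1.99 and 4.58, and with no minimum the median of genes shared with gut was 2.62 and 17 genes were called lower with culture, because 36 were tested. Leaving out 1 library at a time gave 1 to 12 genes called lower with culture, with 1 without the bile duct epithelium and 3 without the pancreatic duct epithelium, where fewer genes were tested and the remaining epithelium is assumed to vary like the organoids. It gave 23 to 27 genes lower in bile duct organoids and 12 to 13 in pancreatic duct organoids. Organoids of the 2 organs share replicate numbers by title only. Deviations of same-numbered organoids from their group means correlated across genes at -0.10, -0.44 and 0.48 for numbers 1, 2 and 3, so the numbers were not taken as pairs, and limma with a replicate block called 0 of the 37 genes. In the organoid comparison each alternative called 0 of them, while leaving out pancreatic duct organoid 3 gave 11 calls over all genes. Each epithelium is 1 library, and genes with few reads carry wide counting intervals.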
